A study of Saccharomyces cerevisiae with 8 samples.

Results

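Allele frequencies in genomic DNA were compared between the haploid spores of a yeast cross and the diploid hybrid that gave rise to them. The 4 DNA samples, of 8 samples in the series, were 2 cultures of the hybrid of S96 and SK1 (hybrids A and B) and 2 pools of its spores (spore pools A and B), all grown in YPD, a rich glucose medium. S96 is a laboratory strain isogenic to the reference strain S288c apart from its mating type, and SK1 is a strain that sporulates efficiently. The other 4 samples are RNA of the same hybrids and pools. Each DNA value is a number of reads that carried the S288c or the SK1 base at a SNP. The 64272 SNPs were grouped into fixed windows of 20 kb along the 16 chromosomes of genome version R64, which gave 600 windows, each with at least 50 reads in spore pool A and in both hybrids. The SK1 share of the reads in each window was then set against the hybrids.

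Meiosis passes either parental allele of a gene to each spore with equal chance, so an unselected pool carries both alleles equally often, as the hybrid does. A locus at which spores with one allele are recovered or grow better departs from equality, and neighbouring alleles depart with it until recombination has separated them. To make the pools, the hybrid was sporulated, and the germinated spores were grown overnight and selected to be of 1 mating type. Mating type is set by the MAT locus on chromosome III, where a haploid cell carries either the a or the alpha information. Which mating type was kept is not given in the sources used here. The files do not name the alleles of the 2 DNA read columns, and the first was read as S288c and the second as SK1. The RNA counts, which name their alleles, are given beside the DNA below.

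The depth was 5044730 reads for hybrid A, 4427895 for hybrid B, 9749494 for spore pool A and 266380 for spore pool B. The methods state that spore pool B was fragmented with a single type of sonicator, and it covered 10355 of the SNPs (16.1%). A window held a median of 16040.5 reads in spore pool A, 8211.5 and 7319.5 in the hybrids and 323 in spore pool B, and 538 windows reached 50 reads in spore pool B. Its reads were also spread unevenly, at 1.00 on the log2 scale relative to the hybrids on chromosome I, 0.69 on chromosome III and -0.44 on chromosome IV, whereas those of spore pool A stayed between -0.13 and 0.036 on every chromosome. Over the whole genome the SK1 share was 47.9% and 48.1% in the hybrids, 48.3% in spore pool A and 48.1% in pool B, so that both alleles were near balance in every sample. Reads at SNPs of a window scattered more than binomial counts would, by a factor of 2.39 to 2.70 in variance, and the exact binomial intervals given below cover counting error only.

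Most of the genome stayed close to the hybrids in spore pool A. The SK1 share lay within 5 percentage points of the mean of the hybrids in 485 of 600 windows (80.8%), with a standard deviation of 5.35 points. Hybrid A and hybrid B differed from each other with a standard deviation of 2.03 points, and by 7.42 points at most. In spore pool A 25 windows departed by 10 points or more (4.17% of 600), 17 of them towards SK1 and 8 towards S288c, whereas 0.0% of the windows separated the hybrids by that much. These 25 windows formed 4 loci. Alleles of SK1 were enriched on chromosome III and at the left end of chromosome XV, and alleles of S288c on chromosomes IV and XIV. Spore pool B departed by 10 points or more in 22.5% of its 538 windows, 65 towards SK1 and 56 towards S288c, with a standard deviation of 9.50 points. Single windows of this shallow library therefore carry little weight, and the pools share the hybrids as their reference.

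**Figure D1:**
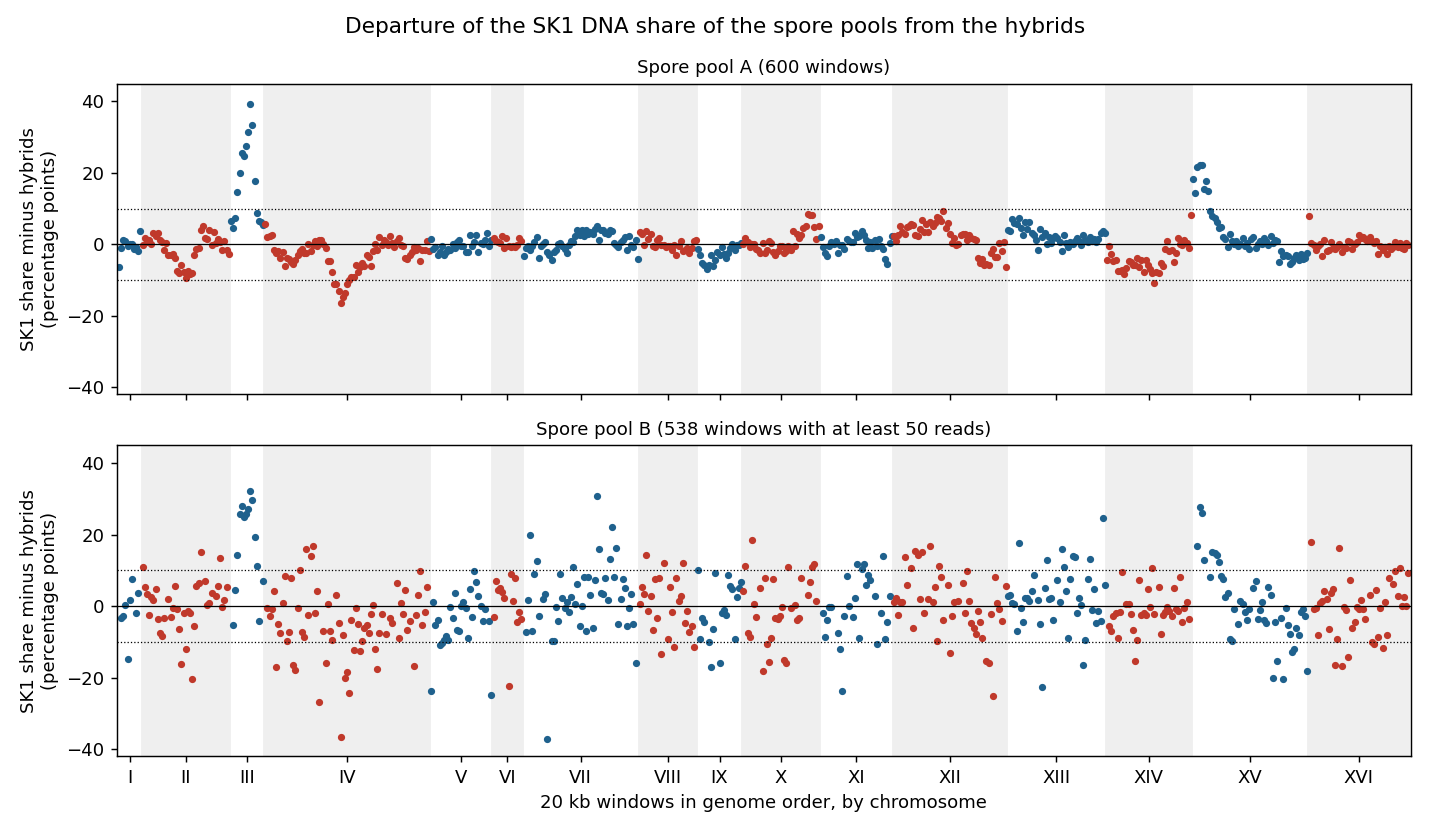
SK1 share of DNA reads in each 20 kb window minus the mean of the hybrids, in percentage points, for spore pool A (top) and spore pool B (bottom), with windows in genome order and dotted lines at 10 points. The 25 windows of spore pool A past the lines sit on chromosomes III, IV, XIV and XV, while spore pool B scatters more widely.

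A SNP of each locus is shown with 14 reference bases on either side, from the forward strand of R64, to give its place. The capital marks the SNP, the base by which reads were assigned to an allele. The first 4 are the SNPs nearest the middle of the peak window of each locus with at least 10 reads in spore pool A and both hybrids, and the last is the SNP nearest the middle of MATALPHA1 by the same minimum. The files give no SK1 base, so only the reference base is printed.
III, chrIII:190163-190191: taattgaacaaacgGctgagacgggcaat
IV, chrIV:709993-710021: agaccattttattcGacaagttcatggag
XIV, chrXIV:449925-449953: gaatctgctgtcggGaagtcctcaatagt
XV, chrXV:69926-69954: gcggccttcttttcTttgtattttggtaa
MATALPHA1, chrIII:201171-201199: caatcaattcttagCatcattctttgttc
The chromosome III SNP at position 190177 lies 8 bp outside SNT1. Its SK1 base was read in 124 of the reads of spore pool A against 17 with the S288c base (87.9% SK1), and in 54.7% and 54.2% of the reads of the hybrids. The SNP at 710007 on chromosome IV is the last base of codon 153 of MTC5, and SK1 made up 28.4% of its reads in spore pool A against 41.2% and 39.5% in the hybrids. The SNP at 449939 on chromosome XIV is the last base of codon 24 of YPT53, with 38.3% in spore pool A against 70.2% and 58.2%. The SNP at 69940 on chromosome XV falls on the last base of codon 35 of MED7, which is encoded on the reverse strand, with 77.3% in spore pool A against 54.4% and 43.1%. The hybrids differ by several points at single SNPs, so windows rather than SNPs are compared from here on.

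The farthest departure of the genome was on chromosome III, where 9 adjacent windows from 60001 to 240000 were enriched for SK1 in spore pool A. In the peak window, 180001 to 200000, SK1 made up 51.5% and 47.2% of the reads of hybrids A and B, 88.7% in spore pool A (95% interval 88.0 to 89.4) and 81.5% in spore pool B (71.3 to 89.2, 81 reads). Both pools lay above both hybrids by far more than the hybrids differed. The SK1 share of spore pool A was above both hybrids at all 59 SNPs of this window and ran from 81.0% to 96.9% between SNPs. Peak windows were chosen by these same reads. SNP counts, here and at the other loci, therefore describe the window and add no support for it. The enrichment fell away on either side, through 80.3% and 81.0% in the adjacent windows to 63.96% at 60001 and 66.6% at 220001. Beyond the locus it stayed 4.63 to 8.74 points above the hybrids as far as either end of the chromosome, so that every window of chromosome III lay above both hybrids in spore pool A. Over the 9 windows together SK1 had 73.8% of the reads in spore pool A and 72.8% of the 6165 reads in spore pool B, against 48.9% and 49.1% in the hybrids.

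The peak window holds the genes of MATALPHA2, BUD5, PHO87, RBK1, RRP43, ELO2, SNT1 and BPH1. MATALPHA2 encodes a repressor of the alpha information at MAT, BUD5 acts in the choice of the bud site, PHO87 encodes a phosphate transporter and ELO2 a fatty acid elongase. MATALPHA1, the other gene of the alpha information, starts at 200442 and falls into the next window. In finer windows of 5 kb the SK1 share in spore pool A was highest at 200001 to 205000, the window that holds MATALPHA1, with 93.3% of 954 reads against 43.9% and 50.7% in the hybrids. The SNP nearest this gene, at 201185 and 216 bp past its end, carried SK1 in 132 of the reads of spore pool A against 10 with S288c (93.0%), and in 36.5% and 56.2% of the hybrid reads. The silent mating cassettes near the ends of the chromosome departed far less. In spore pool A the window of HMLALPHA1 and HMLALPHA2 lay 6.46 points above the hybrids and that of HMRA1 and HMRA2 lay 6.37 points above. LEU2 and HIS4, biosynthetic genes often deleted as markers in laboratory strains, lie inside the locus at 19.98 and 14.8 points.

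The second locus towards SK1 covered the first 160 kb of chromosome XV in 8 windows. In its peak window, 60001 to 80000, SK1 had 49.5% and 49.0% of the reads in hybrids A and B, 71.5% in spore pool A and 76.9% in pool B (72.7 to 80.7, 450 reads). In spore pool A, whose reads chose the window, 131 of its 136 SNPs lay above both hybrids. The top of this locus was broad. The windows at 40001, 60001 and 80001 stood 21.8, 22.2 and 22.2 points above the hybrids, and 6 windows of 5 kb between 45001 and 95000 were within 5 points of the highest of them. From there the excess fell to 14.8 points at 140001 and 9.35 points at 160001, just outside the locus, and all 16 windows to 320000 lay above both hybrids. Over the whole locus SK1 had 68.0% of the reads in spore pool A and 70.7% of the 1610 reads in spore pool B, against 48.3% and 48.7% in the hybrids. In spore pool B 4 of the 8 windows had fewer than 50 reads.

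The peak window on chromosome XV holds CDC33, the cap-binding translation factor eIF4E, MED7, a subunit of Mediator, HRT1, a ubiquitin ligase subunit, ALR1, a magnesium transporter, PFK27, GAS4, which acts in spore wall assembly, RTC1, BSC6, VPS68, YGK3 and YOL131W. These genes are named for their place, and the reads do not tell them apart as the source of the departure. IRA2, an inhibitor of Ras signalling whose natural variants are known to affect growth in other yeast crosses, lies in the window just outside, with 47.6% and 47.5% in the hybrids, 56.9% in spore pool A and 55.7% of 897 reads in spore pool B. The depth of spore pool A over the locus was above that of the hybrids by a median of 0.24 on the log2 scale after scaling to library size, against a standard deviation of 0.15 over all windows, and its part in the result was not tested. The corresponding medians were -0.044 on chromosome III, -0.093 on chromosome IV and -0.028 on chromosome XIV.

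On chromosome IV the alleles of S288c were enriched in 7 adjacent windows from 640001 to 780000. In the peak window, 700001 to 720000, SK1 had 49.6% and 48.8% of the reads in the hybrids, 32.9% in spore pool A (32.3 to 33.4) and 12.7% in spore pool B (7.91 to 18.9, 158 reads). In spore pool A, whose reads chose the window, 156 of its 178 SNPs lay below both hybrids and 2 above. The 7 windows, admitted by the limit of 10 points in spore pool A, ran from 31.6% to 36.8% in that pool. In spore pool B, those with enough reads ran from 12.7% to 50.3%. The windows beside its lowest one had 43.2% and 38.1%. Spore pool B is the shallower library and passed no such limit, so the 2 ranges cannot be compared as spreads. Over the locus as a whole SK1 had 34.7% of the reads in spore pool A and 31.9% of 1901 reads in spore pool B (29.8 to 34.1), against 48.1% and 47.6% in the hybrids. The depletion of SK1 extended past the locus, at -9.91 points from the hybrids in the window at 780001 and -9.07 and -9.04 points in the next windows. In all, 22 windows in a row from 580001 to 1020000 lay below both hybrids in spore pool A.

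The peak window on chromosome IV holds ARO1, a multifunctional enzyme of aromatic amino acid synthesis, SAC6, an actin bundling protein, MTC5, SWF1, a palmitoyltransferase, FIN1, ECM18, MRX16, YDR124W and YDR131C. In windows of 5 kb the lowest SK1 share of spore pool A was 29.6% of 7335 reads at 710001 to 715000, across MTC5 and SAC6, with 50.4% and 50.5% in the hybrids. The windows next farthest from the hybrids hold YCF1, RGP1, HPR1, RUB1, MTQ2, DOP1 and CCW22, and then SWI5, TAF12, NUM1, KGD2, EKI1, MKC7, SAN1 and PEX7. YCF1 encodes a vacuolar transporter of glutathione conjugates and SWI5 a transcription factor of the cell cycle.

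The fourth locus was a single window of chromosome XIV, 440001 to 460000, in which SK1 had 50.5% and 50.9% of the reads in the hybrids, 39.9% in spore pool A (38.9 to 41.0) and 48.4% in spore pool B (35.8 to 61.3, 64 reads). In spore pool A, whose reads chose the window, 38 of its 54 SNPs lay below both hybrids and 3 above. It holds RAS2, a small GTPase of nutrient signalling, TOP2, a DNA topoisomerase, RHO2, YPT53, PHO23, RPS7B, NST1, PLS1, APP1, YNL095C, YNL092W and the non-coding RNA gene YNCN0007W. This window was the low point of a shallow depletion over much of the chromosome. All 28 windows from 1 to 560000 lay below both hybrids in spore pool A, at -5.74 points on average, and SK1 had 41.7% of the reads there against 47.5% and 47.8% in the hybrids and 45.8% of 13132 reads in spore pool B. The next window holds MKT1, SAL1, PMS1 and END3, genes in which laboratory strains differ from other isolates, and stood at 33.7% in spore pool A, but the hybrids too were low there, at 42.8% and 40.1%.

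**Figure D2:**
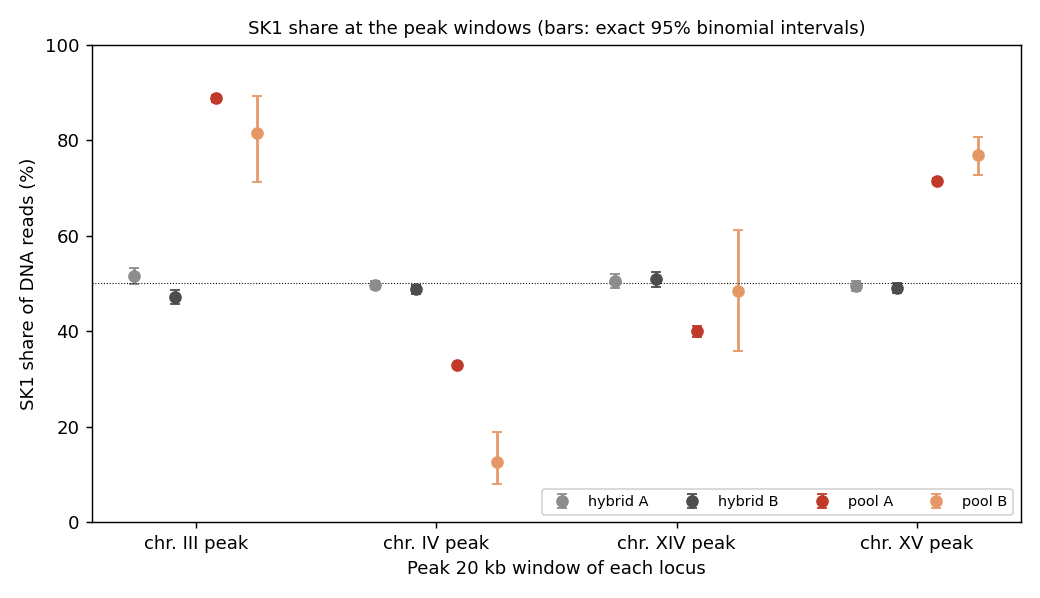
SK1 share of DNA reads in percent in the peak window of each locus for the 4 DNA samples, with exact 95% binomial intervals. The hybrids lie between 47.2% and 51.5%, spore pool A is at 88.7%, 32.9%, 39.9% and 71.5%, and spore pool B has the wide intervals of a shallow library and overlaps the hybrids on chromosome XIV.

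**Figure D3:**
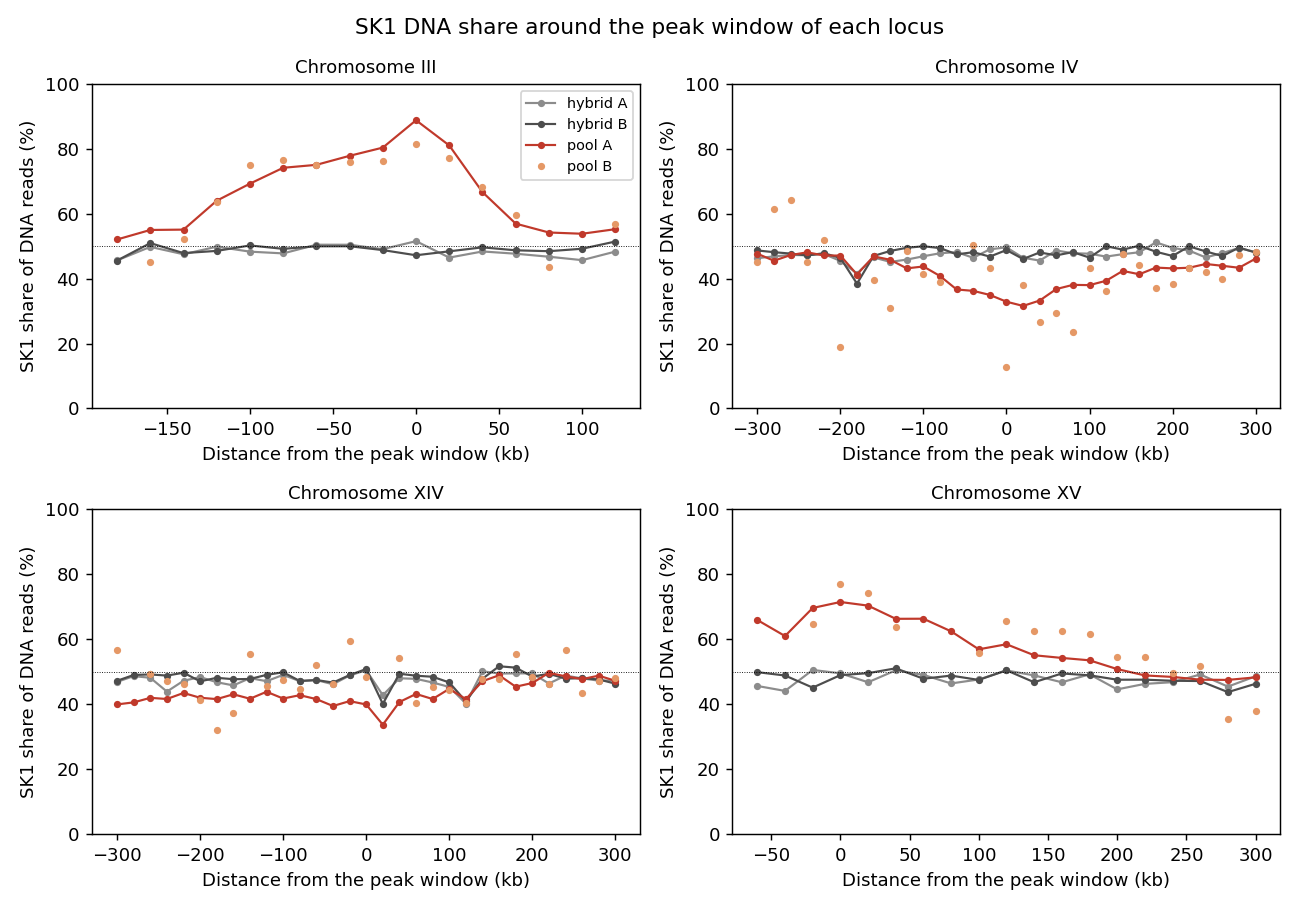
SK1 share of DNA reads in percent against distance from the peak window in kb, within 300 kb, for both hybrids and spore pool A (lines) and for windows of spore pool B with at least 50 reads (points). Spore pool A rises to a pointed maximum of 88.7% on chromosome III and a broad one of 71.5% on chromosome XV, dips to 32.9% at the chromosome IV peak and runs below the hybrids along much of chromosome XIV.

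Around the limit of 10 points the values were continuous. Just inside it were the chromosome XIV window and 3 windows of chromosome IV between -11.2 and -11.04 points from the hybrids. Just outside were, besides those already named, a window of chromosome II at 400001 (-9.28 points), one of chromosome III at 240001 (8.74 points) and one of chromosome X at 620001 (8.47 points). A window of chromosome XII at 460001, 9.22 points above, holds 2 SNPs, and its hybrids had SK1 shares of 25.5% and 32.7%.

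Shallow departures over long stretches were a common feature outside the loci. In spore pool A 12 runs of at least 10 adjacent windows lay on 1 side of both hybrids, 6 above and 6 below, of which 4 contain the loci. The others included the left part of chromosome XII, where 27 windows to 540000 were 4.78 points above the hybrids on average, and 18 windows of chromosome VII (3.42 above), 14 of chromosome XIII (4.61 above) and 11 of chromosome X (4.88 above). On the side of S288c were 15 windows of chromosome II from 240001 to 540000 (-5.31 points on average), 15 of chromosome IX (-3.72), 14 at the right end of chromosome XV (-3.61) and 11 further windows of chromosome IV (-3.55). The SK1 share of spore pool B over the chromosome II run was 43.1% against 42.9% in spore pool A and 48.2% and 47.8% in the hybrids. Over the chromosome IX run it was 41.9% against 44.2% in spore pool A and 47.9% and 48.1% in the hybrids. The RNA change had the sign of the DNA of spore pool A in 15 of 15 windows tested in the chromosome II run (median -0.38 on the log2 scale), 10 of 10 on chromosome X, 17 of 18 on chromosome VII, 13 of 14 on chromosome XV, 13 of 15 on chromosome IX, 12 of 14 on chromosome XIII, 22 of 26 on chromosome XII and 7 of 11 on chromosome IV (median -0.12). Over all windows the median RNA change was -0.013. The share of all windows in which the RNA change had the sign of the DNA was not computed. Counts such as 7 of 11 can therefore not be set against it. The windows of a run are linked, so these RNA counts are not of separate events. On chromosomes I, V, VI, VIII, XI and XVI no run of this length was found.

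To ask which windows differed between pools and hybrids beyond the spread of the replicates, the counts of both alleles were fitted in all 4 samples with edgeR's quasi-likelihood test, and p-values were adjusted by the Benjamini-Hochberg method over the 538 windows with at least 50 reads in every sample. Changes are log2 ratios of the SK1 to S288c odds, pools over hybrids. At an adjusted p below 0.05, 13 windows changed (2.42%), all towards SK1, and 0.0% changed towards S288c. The 13 were the 9 windows of the chromosome III locus and 4 windows of the chromosome XV locus, which are all those tested there. An unadjusted p below 0.05 was reached by 60 windows, 32 towards SK1 and 28 towards S288c. As alternatives, edgeR on 40 kb windows called 15 of 297, 10 towards SK1 and 5 towards S288c, DESeq2 called 16 windows of 20 kb towards S288c and limma 0. The peak window of chromosome III changed by 2.93 on the log2 scale (SE 0.22, adjusted p = 0.00163, edgeR) and that of chromosome XV by 1.51 (SE 0.16, adjusted p = 0.00371, edgeR). The SNPs of neighbouring windows are linked in the same spores, so adjacent calls are not separate events.

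The chromosome IV locus did not pass this test in windows of 20 kb. The edgeR estimates of its 6 tested windows ran from -1.33 to -0.43, with adjusted p-values between 0.0626 and 0.537, and the peak window had -1.33 (adjusted p = 0.192). The chromosome XIV window had -0.56 (adjusted p = 0.26, edgeR). This outcome depended on the processing and on single libraries. With windows of 40 kb the same edgeR test called the window of the chromosome IV peak (-0.93, SE 0.096, adjusted p = 0.00154), and on 20 kb windows DESeq2 called 4 of the 6, and edgeR with at least 200 reads per sample called 1 of the 3 that remained. Without spore pool B all 6 windows on chromosome IV and the window on chromosome XIV were called, and 118 windows in all, and without spore pool A 3 on chromosome IV and 179 in all. In these fits the remaining pool is assumed to vary as little as the hybrids do. Without hybrid A or hybrid B, 7 and 6 windows were called in all.

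The RNA of the same hybrids and pools gave a second, separately sequenced readout of which alleles were present. In a pool of haploid spores the RNA of an allele scales with the share of spores that carry it, although regulation can also shift the allelic ratio between the hybrid and the spores, and the 2 cannot be told apart. Coding transcripts with at least 50 allele-specific read pairs in each library were placed on R64 by their systematic names, and the median log2 ratio of SK1 to S96 pairs was taken over the transcripts of a window. Of 577 windows with at least 3 transcripts, 27 changed between pools and hybrids at an adjusted p below 0.05 (4.68%, limma), 18 towards SK1 (3.12%) and 9 towards S96 (1.56%). Within the 4 DNA loci 21 of the 24 windows tested were called, and 6 of the 27 calls lay elsewhere. In all 27 windows both pools lay on 1 side of both hybrids, but the 27 were called on these same values. The share of all 577 windows that separate in this way was not computed. These calls needed both pools. Without spore pool B limma called 2 windows, both on chromosome III, and without spore pool A 0 windows (60 at an unadjusted p below 0.05), while the estimates of the peak windows of chromosomes III, IV and XV were then 2.27, -1.14 and 1.40.

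On chromosome III 8 of the 9 windows of the locus changed in RNA. In the peak window the RNA log2 ratio was 0.0085 in hybrid A, -0.18 in hybrid B, 3.43 in spore pool A and 2.18 in pool B, a change of 2.89 (SE 0.32, adjusted p = 0.000334, limma). Both pools were far above both hybrids, and spore pool A was higher than spore pool B. The DNA of the peak window had the same order, but on 81 reads in spore pool B. The interval of that share, 71.3 to 89.2, includes the 88.7% of spore pool A. The order of the pools in DNA also changed between windows of the locus. The window left uncalled, which holds LEU2, had hybrid ratios of -1.55 and 0.40, and changed by 1.30 (adjusted p = 0.185, limma). Beyond the locus the windows at 40001 and 240001 were called as well, at 0.95 and 0.74.

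On chromosome IV all 7 windows of the locus fell in RNA, by 0.76 to 1.02 on the log2 scale, with adjusted p-values from 0.00457 to 0.0368 (limma). With all transcripts placed by their deposited coordinates, an alternative added after the data were seen, 6 of the 7 were called and the peak window was not (-0.92, adjusted p = 0.0582, limma). The peak window had RNA log2 ratios of -0.40 and -0.13 in the hybrids, -1.16 in spore pool A and -1.41 in pool B. The median change over the locus was -0.91 in RNA and -0.82 in DNA, against -0.013 and -0.0060 over all windows. Of 53 transcripts in the locus, 47 were lower in spore pool A and 51 in pool B than the mean of the hybrids. Among all 4795 transcripts, 2377 were higher than the hybrids in spore pool A and 2386 in pool B. Transcripts of a locus are linked, so they are not separate events. In none of the 7 windows did the RNA of a pool overlap that of a hybrid, but they were called on these same values. The share of all windows without such overlap was not computed, so the count adds nothing to the calls.

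On chromosome XV 6 of 7 windows tested changed in RNA, among them 2 at 120001 and 140001 in which the DNA of spore pool B was too shallow to test. The peak window had RNA log2 ratios of -0.23 and 0.015 in the hybrids, 1.34 in spore pool A and 1.29 in pool B, a change of 1.42 (SE 0.16, adjusted p = 0.000337, limma). The pools were nearly equal there and both stood clear of the hybrids. The window of the locus left uncalled had ratios of -0.45 and -0.90 in hybrids A and B, -0.52 in spore pool A and 0.16 in pool B. Its change was 0.49 (adjusted p = 0.338, limma), and spore pool A lay between the hybrids there. The window of IRA2, outside the locus, changed by 0.56 (adjusted p = 0.0758, limma). On chromosome XIV the RNA of the locus did not follow the DNA of spore pool A. Its log2 ratios were -0.18 and -0.023 in the hybrids and 0.084 and -0.0023 in the pools, a change of 0.14 (SE 0.16, adjusted p = 0.736, limma), and 4 of its 8 transcripts were lower in spore pool A. Of the 27 windows tested along the depleted 560 kb of this chromosome, 24 had a negative RNA change. The median of the 27 was -0.23, against -0.013 over all windows, and none was called. The share of negative RNA changes over all windows was not computed.

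**Figure D4:**
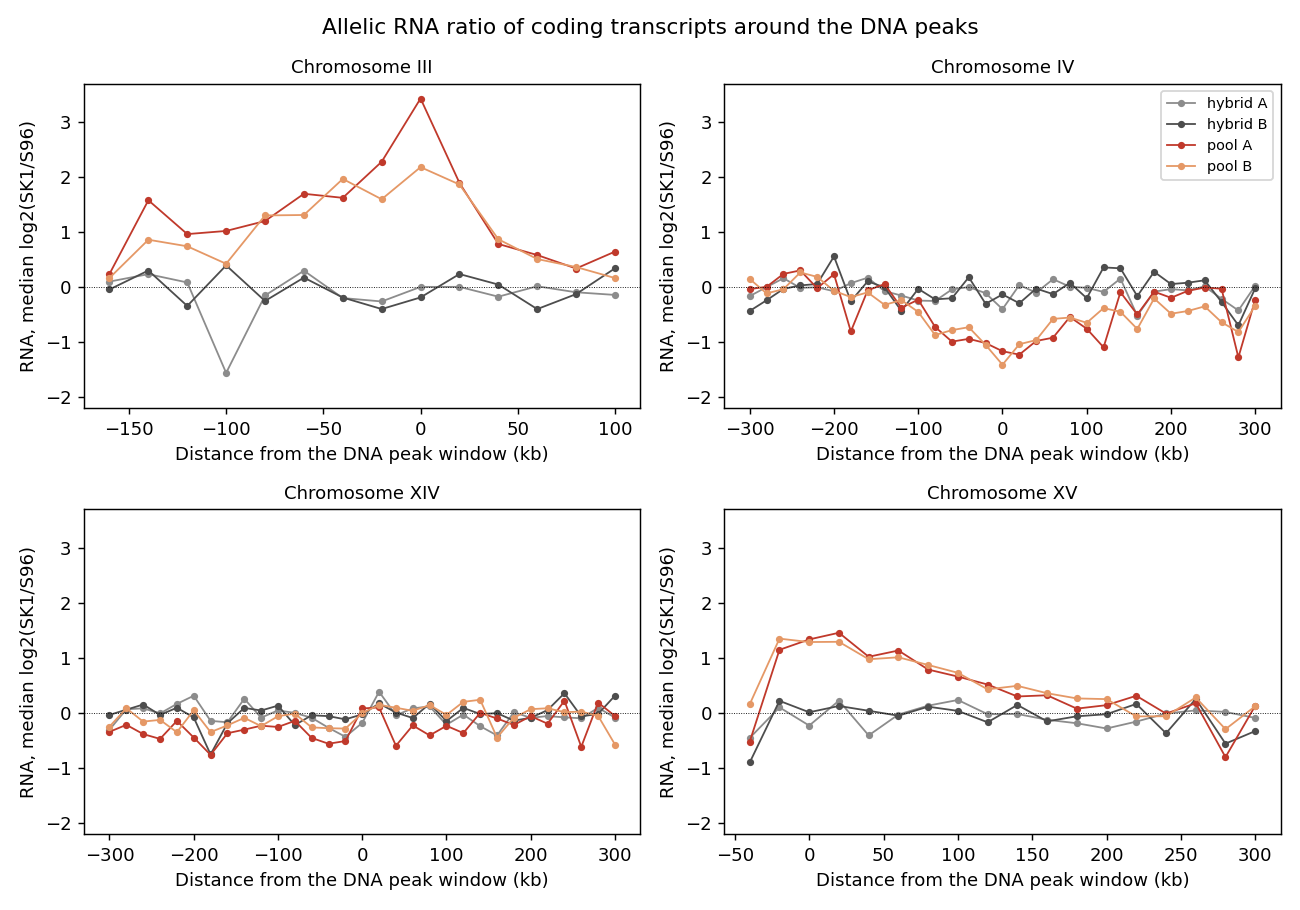
Median log2 ratio of SK1 to S96 RNA read pairs over the coding transcripts of each 20 kb window, against distance from the DNA peak window in kb, for 2 hybrids and 2 spore pools. Both pools run above the hybrids along the chromosome III locus and most of that on chromosome XV, reaching 3.43 and 2.18 and then 1.34 and 1.29 at the peaks, run below them on chromosome IV, and overlap them at the chromosome XIV peak.

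The RNA calls outside the loci and their margins were 4 windows. The change of greatest size was in the window of chromosome XII at 880001, with RNA log2 ratios of 0.42 and 1.13 in the hybrids and -0.51 and -0.81 in the pools (change -1.43, SE 0.23, adjusted p = 0.00355, limma, 5 transcripts). The DNA there had SK1 shares of 49.2% and 47.1% in the hybrids, 42.5% in spore pool A and 32.4% of 68 reads in pool B. It was not called (adjusted p = 0.479, edgeR). The window of chromosome IX at 120001 fell by 1.14 in RNA. Its SK1 share in DNA was 42.7% in spore pool A and 38.6% of 1043 reads in pool B, against 48.6% and 48.5% in the hybrids. The windows of chromosome X at 680001 and of chromosome XII at 100001 rose by 0.62 and 0.65 in RNA. Their DNA shares were 53.5% and 50.4% in spore pool A. In spore pool B they were 60.5% of 81 reads and 61.2% of 379 reads.

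Over all windows the DNA change of spore pool A had a Pearson correlation of 0.77 with the RNA change of spore pool A (n = 577 windows) and of 0.75 with that of spore pool B. Outside the 4 loci these were 0.53 and 0.49 (n = 553). For the DNA of spore pool B they were 0.45 and 0.49 (n = 529), and outside the loci 0.23 and 0.29 (n = 509). Windows are linked along chromosomes and the RNA columns share their hybrids, so these values describe the windows only.

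**Figure D5:**
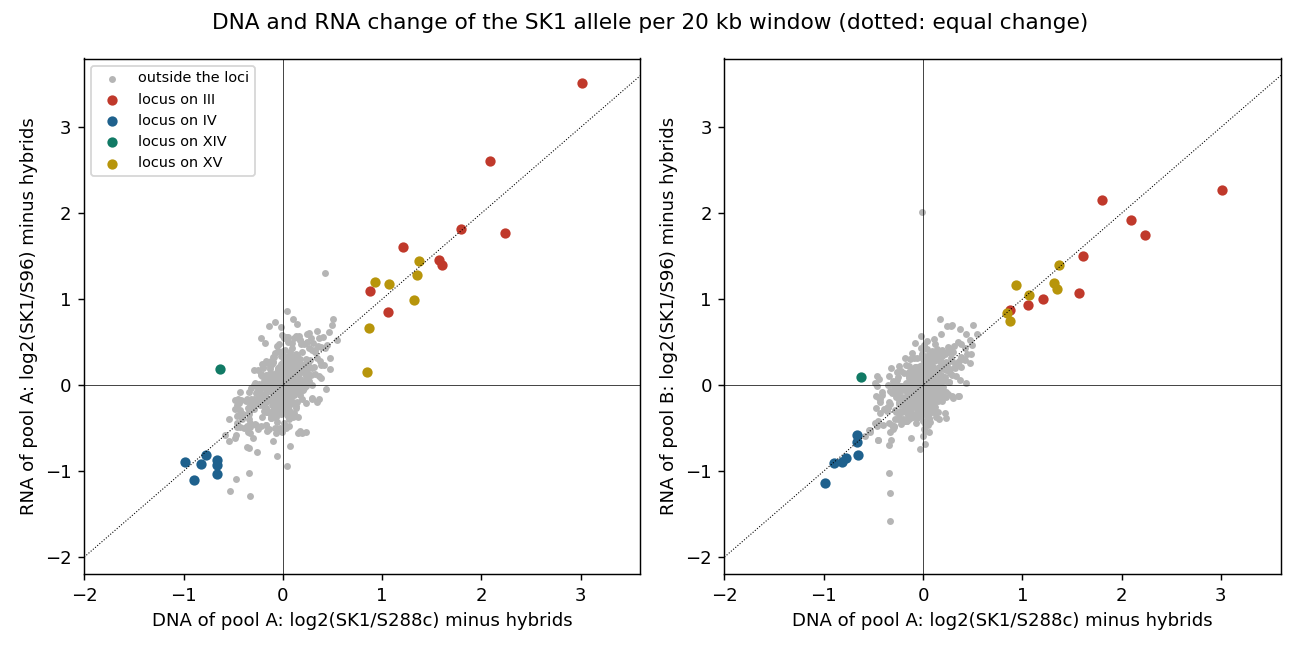
Change in log2 ratio of SK1 to the other allele between pools and hybrids per 20 kb window, in DNA of spore pool A (horizontal) and in RNA of spore pool A (left) and spore pool B (right), with windows of the 4 loci coloured. Most windows of the loci on chromosomes III, IV and XV lie near the line of equal change. The uncalled window of chromosome XV lies below it in the RNA of spore pool A, and that of chromosome XIV lies below 0 in DNA and slightly above 0 in RNA.

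Lists of genes that are known to vary between laboratory strains or to affect mating, sporulation or growth were placed in the windows. Windows past 10 points in spore pool A held 2 of 6 mating type genes, MATALPHA1 and MATALPHA2, and 2 of 12 marker genes, LEU2 and HIS4, beside 4.17% of all windows. The lists are too short to read more than the single values from such counts, and some genes share a window. For 20 growth genes the count was 0, with a median departure of 2.06 points and a range from -7.75 to 9.35. The highest was IRA2. HAP1, a regulator of respiratory genes that is disrupted by a transposon in S288c, stood 2.96 points above the hybrids in spore pool A and 6.35 points above in pool B, with an RNA change of -0.12 (adjusted p = 0.778, limma). AMN1, which acts in the separation of daughter cells, was 3.97 points above in spore pool A and 15.2 in pool B (160 reads), and PHO84, a phosphate transporter, 3.68 and 3.09 points above. For 7 sporulation genes it was 0 as well and the median was -2.50, with MKT1 and PMS1 in 1 window. IME1, the master regulator of meiosis, was at 5.08 points and TAO3 at -6.84. Of the marker genes LYS2 and LYP1 were at -8.06 and -7.55 points in spore pool A and at -20.4 and -1.72 in pool B. CAN1, URA3, TRP1 and HO lay within 2.33 points in spore pool A, while URA3 was at -10.4 points in pool B on 1246 reads.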

How the data were processed

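The authors took the DNA data from an earlier study, and deposited counts of reads per SNP and allele for 4 samples, with positions lifted to R64 and no normalization. The aligner of the DNA reads is not given in the sources used here, and a mapping bias towards S288c is stated by the methods. Every SNP listed in a file had at least 5 reads. The deposited RNA values are counts of allele-specific read pairs per transcript, allele and lane. The submitters' processing notes name GSNAP, HTSeq 0.5.4p5, R64 and sacCer3. The authors' methods call replicates A and B biological replicates.

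Read counts were summed per allele over windows of 20 kb from base 1 of each chromosome. The second column of the DNA files was used as the SNP position, because it placed 66.1% of 39715 coding SNPs at the last codon position, against 17.1% for the third column. Windows with at least 50 reads per sample were tested with edgeR 4.0.16 (R 4.3.3), with a term for each sample, an allele term and the interaction of allele and pool. RNA lanes were summed to between 45279970 and 52572032 pairs per library, and medians of log2 ratios with a pseudocount of 1 over 4795 coding transcripts were tested with limma 3.58.1. Adjusted p-values are Benjamini-Hochberg values. On simulated counts the DNA test made 176 calls with 1 false for 200 changed windows of 538. It called 50% of the changes of 0.5 on the log2 scale and 100% of those of 1 or more. The simulated spread came from the fit itself, and both pools were given the same change. These rates therefore need not hold for real windows in which the pools differ. The chromosome IV peak window, estimated at -1.33, was not called. The RNA test made 206 calls with 9 false for 200 changed windows of 577. Loci were runs of windows at least 10 points from the hybrids in spore pool A, joined across at most 1 window, and were described without a test. The text names 1 SNP and the genes of each peak window, the genes of the 3 windows farthest towards S288c, and some genes of the lists. The 3 windows farthest towards SK1 all lie on chromosome III. Of their genes outside the peak window only MATALPHA1 is named. Windows of 5 kb and the SNP near MATALPHA1 were added after the values were seen. The members, lists and tests were chosen with earlier results of these data known. Gene names and positions are from RefSeq for R64. Alternatives were other window sizes, filters, scalings and thresholds, DESeq2 1.42.0, a replicate block and each sample left out. The list entry MAT was not matched, and 1 further list is not reported here.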

Additional observations from a re-analysis of the deposited data

How the results depend on the processing

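The depth of spore pool B limits the DNA test, since 62 of 600 windows had fewer than 50 of its reads and were not tested. With 2 samples a group and linked windows, counts of calls moved with the setting. In DNA, 13 windows changed, and the number was 42 with DESeq2 (26 towards SK1 and 16 towards S288c, the 13 among them), 28 at an adjusted p below 0.2 and between 6 and 179 with 1 sample left out. In RNA, 27 changed, against 69 at an adjusted p below 0.2, 46 with reads summed over transcripts and between 0 and 32 with 1 library left out. The windows of spore pool A past the limit, 25 in number, became 53 of 1179 with windows of 10 kb, 14 of 305 with 40 kb, 115 at 5 points and 15 at 15 points, and 27 or 28 with 1 hybrid left out. Those of spore pool B, 121 in number, became 250, 42, 281 and 66 under the same settings, and 128 or 129. The 4 loci became 7 with windows of 10 kb, 27 at 5 points, 16 with the 10355 SNPs listed in all samples, and 4 or 7 with 1 hybrid left out. At 15 points and with 40 kb the chromosome XIV locus was lost. With 40 kb there were still 4 loci, because 1 on chromosome XII was gained. Chromosome XII also had a locus with windows of 10 kb, with windows shifted by 10 kb and without hybrid B. Chromosome II had one with windows of 10 kb and without hybrid B. The RNA change of the chromosome XIV peak, 0.14, turned to -0.13 with at least 200 reads per transcript, to -0.036 with summed reads and to -0.0030 with all transcripts placed by their deposited coordinates, an alternative added after the data were seen. The other 43 alternatives of these counts stayed within 1.5 times. Replicate letters were not used to pair the samples in the main fits. A minus B in the hybrids and in the pools had a correlation of -0.0051 over windows in DNA and -0.061 in RNA. The DNA value cannot tell whether the letters pair the samples, because both hybrids carry the 2 alleles equally often. Pairing was not otherwise tested. With the letter as a replicate block 12 windows changed in DNA and 31 in RNA.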
